A study of Mus musculus with 7 samples.

Results

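The plasma protease inhibitors of mouse liver described here are the clade A serpins Serpina1a, Serpina1b, Serpina1c, Serpina1d, Serpina1e, Serpina3k, Serpina3n and Serpina6, with the bait-region inhibitor Pzp and the heavy chain Itih4. A probe set was taken when the array's annotation gave it exactly 1 gene symbol from these 10, and 7 of the 10 genes had one. Serpina1a, Serpina1d and Serpina3k had none and were dropped. The 7 genes, of 8251 genes that could be named on the array, had 9 probe sets, and all 7 passed the filter on dim genes, as 4481 genes did. Of the 9 probe sets, 4 carry the suffix _f_at, which marks probes that can read several related transcripts: those of Serpina1b and Serpina1e, 1 of the pair for Serpina1c and 1 of the pair for Serpina6.

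Total liver RNA was hybridised to 7 arrays, each labelled as 1 female mouse. The mice ate without restriction and were killed at 24 to 26 months. Title, source name and series title call them phenotypically normal, +/+ or +/df, whereas the description calls them Ames dwarf, df/df, so the genotype is unsettled in the labels. There is 1 group and no comparison between groups. Replicates carry the numbers of the titles: 1, 2, 3, 4, 6, 7 and 8. No label says outright whether each RNA is from a different mouse; the p-values below then measure the spread between these samples, which may be partly technical.

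Serpins are inhibitors with an exposed loop that a protease cuts as if it were a substrate. The loop then snaps into the serpin's body and locks the protease in a dead complex. The Serpina1 genes encode alpha-1-antitrypsin, the main inhibitor of neutrophil elastase in plasma, which the mouse makes from several neighbouring gene copies. Alpha-macroglobulins such as Pzp instead trap a protease inside a cage after it cuts their bait region, and the receptor Lrp1 clears the loaded cage. The hepatocyte makes nearly all of these proteins for the blood.

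The start regions of the Serpina1 copies are shown first because the _f_at probe sets above concern these related copies. RefSeq promoters of GRCm38.p6, which run from 250 bases before to 50 bases after a gene's start, were at hand for 8 of the 10 genes; Serpina3k and Serpina6 were not matched. All 5 Serpina1 promoters share an identical run of 59 bases, which 5 of the 27025 promoters hold. The run with 30 bases on each side is printed for each copy, and capitals mark GTTAAT, an arm of the palindrome read by the hepatocyte factor HNF1.
Serpina1a, chr12:103863591-103863709, minus strand: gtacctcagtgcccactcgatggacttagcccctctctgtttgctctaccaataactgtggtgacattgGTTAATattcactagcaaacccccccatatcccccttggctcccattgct
Serpina1b, chr12:103738166-103738284, minus strand: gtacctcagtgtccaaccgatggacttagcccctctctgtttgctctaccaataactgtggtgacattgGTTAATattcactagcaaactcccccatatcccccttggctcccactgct
Serpina1c, chr12:103904928-103905046, minus strand: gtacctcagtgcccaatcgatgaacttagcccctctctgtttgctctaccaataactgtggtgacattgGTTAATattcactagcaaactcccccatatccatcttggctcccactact
Serpina1d, chr12:103773600-103773718, minus strand: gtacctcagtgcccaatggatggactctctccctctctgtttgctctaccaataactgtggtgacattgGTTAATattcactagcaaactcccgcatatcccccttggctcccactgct
Serpina1e, chr12:103956926-103957044, minus strand: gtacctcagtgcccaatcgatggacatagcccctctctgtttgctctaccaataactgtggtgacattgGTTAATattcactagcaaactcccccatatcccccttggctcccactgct
Over these 119 bases, pairs of copies were 91.6% (Serpina1c and Serpina1d) to 97.5% (Serpina1b and Serpina1e) identical; the window was chosen around the identical run, which raises these shares. Over the whole promoters, aligned on that run without gaps, identity ran from 64.8% (Serpina1b and Serpina1d) to 95.9% (Serpina1a and Serpina1e). Counted from the annotated start, the run's first base is at -60 in Serpina1a, -65 in Serpina1b, -66 in Serpina1c, -55 in Serpina1d and -117 in Serpina1e. Because the copies share this run, their GTTAAT matches are not separate observations.

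The promoters of the inhibitors outside the Serpina1 copies are printed from 100 bases before to 50 after the start, to show the letters that the motif search did and did not find there. Capitals mark any motif searched.
Serpina3n, chr12:104406608-104406757, plus strand: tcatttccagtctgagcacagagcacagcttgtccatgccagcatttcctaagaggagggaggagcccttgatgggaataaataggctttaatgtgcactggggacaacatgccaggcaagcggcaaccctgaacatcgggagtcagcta
Pzp, chr6:128526671-128526820, minus strand: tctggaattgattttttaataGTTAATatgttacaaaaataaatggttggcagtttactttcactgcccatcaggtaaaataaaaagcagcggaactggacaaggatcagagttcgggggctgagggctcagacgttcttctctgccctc
Itih4, chr14:30886376-30886525, plus strand: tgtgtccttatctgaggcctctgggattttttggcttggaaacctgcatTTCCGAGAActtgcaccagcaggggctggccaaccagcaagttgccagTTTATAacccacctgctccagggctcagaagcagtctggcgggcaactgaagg
Each motif was searched on both strands of the 300-base promoters, in which none of the motifs searched contains another. GTTAAT stood in the 5 Serpina1 promoters and in Pzp, 6 of 8, against 7.20% of all 27025 promoters. TTCNNNGAA, a STAT motif, was found only in Itih4 (8.47% of all), and TATAAA likewise only in Itih4 (14.2% of all). TTGCNNAA, a C/EBP motif, stood in Serpina1a, Serpina1b, Serpina1d and Serpina1e (10.8% of all). Its first base was at -161 in Serpina1b, -149 in Serpina1d and -211 in Serpina1e, but at 25, after the start, in Serpina1a. Because the copies are related, these matches may not be separate observations. The glucocorticoid receptor palindrome, AGAACA and TGTTCT with NNN between them, was in none of the 8 and in 1 promoter in all. These matches are letters in a window and were not tested for binding.

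The 7 arrays were alike: pairs correlated at r = 0.961 to 0.975 over the log2 signals of the 4481 tested genes, and no 2 were identical. Spike-in controls, bacterial RNAs added to each sample, fell into 2 sets, where the mean log2 signal was 10.64 to 10.97 for replicates 1 to 4 but 10.20 to 10.24 for replicates 6 to 8. The 3' to 5' signal ratio, a sign of RNA and labelling quality, was 0.788 to 0.907 for Gapdh and 1.31 to 1.78 for actin. Hepatocyte markers were bright (median signal 18867 over 8 genes). The 12 neutrophil markers, the source of elastase, had a median of 53.9 against the floor of 50.04, and 3 of them lay below the floor on every array. Of the 11 T and NK cell markers, 5 lay below it on every array (median 39.7). Medians of the other marker lists were 459 over 11 Kupffer cell and macrophage genes, 246 over 7 B and plasma cell genes, 354 over 9 endothelial genes, 335 over 11 stellate and matrix genes and 24.8 over 5 cholangiocyte genes. The 7 adipose and pancreas markers had a median of 786, with Car3, a carbonic anhydrase, at 12050.

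Serpina1b, Serpina1c and Serpina1e, the alpha-1-antitrypsin copies, gave strong signals that varied little between arrays. In whole liver, fewer cells of a type and less RNA per cell cannot be told apart. Serpina1b (NCBI gene 20701) read 26520 on replicate 8, a median of 28969 and 33010 on replicate 3, a mean of 29331 ± 1981 (SD, n = 7). Serpina1c (NCBI gene 20702) read 26094 on replicate 8, a median of 28107 and 30697 on replicate 3, a mean of 28354 ± 1442 (SD, n = 7). Serpina1e (NCBI gene 20704) read 24883 on replicate 8, a median of 27654 and 31729 on replicate 3, a mean of 28078 ± 2259 (SD, n = 7). In all 3 copies replicate 3 was highest and replicate 8 lowest. The highest array was 1.24, 1.18 and 1.28 times the lowest in Serpina1b, Serpina1c and Serpina1e. Signals of different probe sets depend on their probes, so these values do not rank the copies by amount. Serpina1b lay at 87.4% to 97.0% of the brightest signal of its array, so it sits near the top of the measured range; whether that compresses its spread was not tested.

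Serpina1c was read by a second probe set without the suffix, which had a mean of 25559 ± 1374 (SD, n = 7), again highest on replicate 3 and lowest on replicate 8. The pair correlated at r = 0.873 (exact permutation p = 0.0143) and rho = 0.786 (exact p = 0.0480), but r was 0.319 without replicates 3 and 8, the arrays farthest from the median. Agreement between the 2 Serpina1c readings was therefore weaker on the other arrays. Leaving out the farthest arrays also narrows the range, which can itself lower r. After quantile normalization r was -0.093. That step gave the brighter Serpina1c probe set the same value on 3 arrays, so this r cannot decide whether the readings agree.

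Serpina3n, an acute phase serpin that inhibits granzyme B in the mouse and is the counterpart of human alpha-1-antichymotrypsin, varied most. Serpina3n (NCBI gene 20716) read 4728 on replicate 4, a median of 7195 and 7606 on replicate 8, a mean of 6724 ± 1045 (SD, n = 7). Replicate 4 stood apart below the other 6 arrays, which lay between 6220 and 7606. The log2 SD of Serpina3n was 0.25, and 0.13 without replicate 4.

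Serpina6, corticosteroid-binding globulin, is a serpin that carries glucocorticoids and inhibits no protease. Its brighter probe set (NCBI gene 12401) read 18454 on replicate 8, a median of 20137 and 20672 on replicate 6, a mean of 19818 ± 937 (SD, n = 7). Replicates 7 and 8 were the lowest pair and the other 5 arrays lay within 19937 and 20672. The _f_at probe set of Serpina6 averaged 1202 ± 179 (SD, n = 7), with 873 on replicate 7 and 1432 on replicate 4. The 2 readings of Serpina6 correlated at r = 0.640 (exact p = 0.115) and rho = 0.357 (exact p = 0.444), with r = -0.364 without the 2 farthest arrays, so they did not give the same order of arrays.

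Pzp, the alpha-macroglobulin, and Itih4, a heavy chain of the inter-alpha-trypsin inhibitor family that plasma kallikrein cuts, also read clearly above the filter of 200.1 on every array. Pzp (NCBI gene 11287) read 20979 on replicate 8, a median of 22825 and 26867 on replicate 3, a mean of 22977 ± 1928 (SD, n = 7). Replicate 3 was the single high array of Pzp, since the next, replicate 7, read 23446. Itih4 (NCBI gene 16427) read 8138 on replicate 6, a median of 9279 and 9669 on replicate 3, a mean of 9030 ± 605 (SD, n = 7). Replicates 4 and 6 were low in Itih4 and replicates 3 and 7 high.

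**Figure D1:**
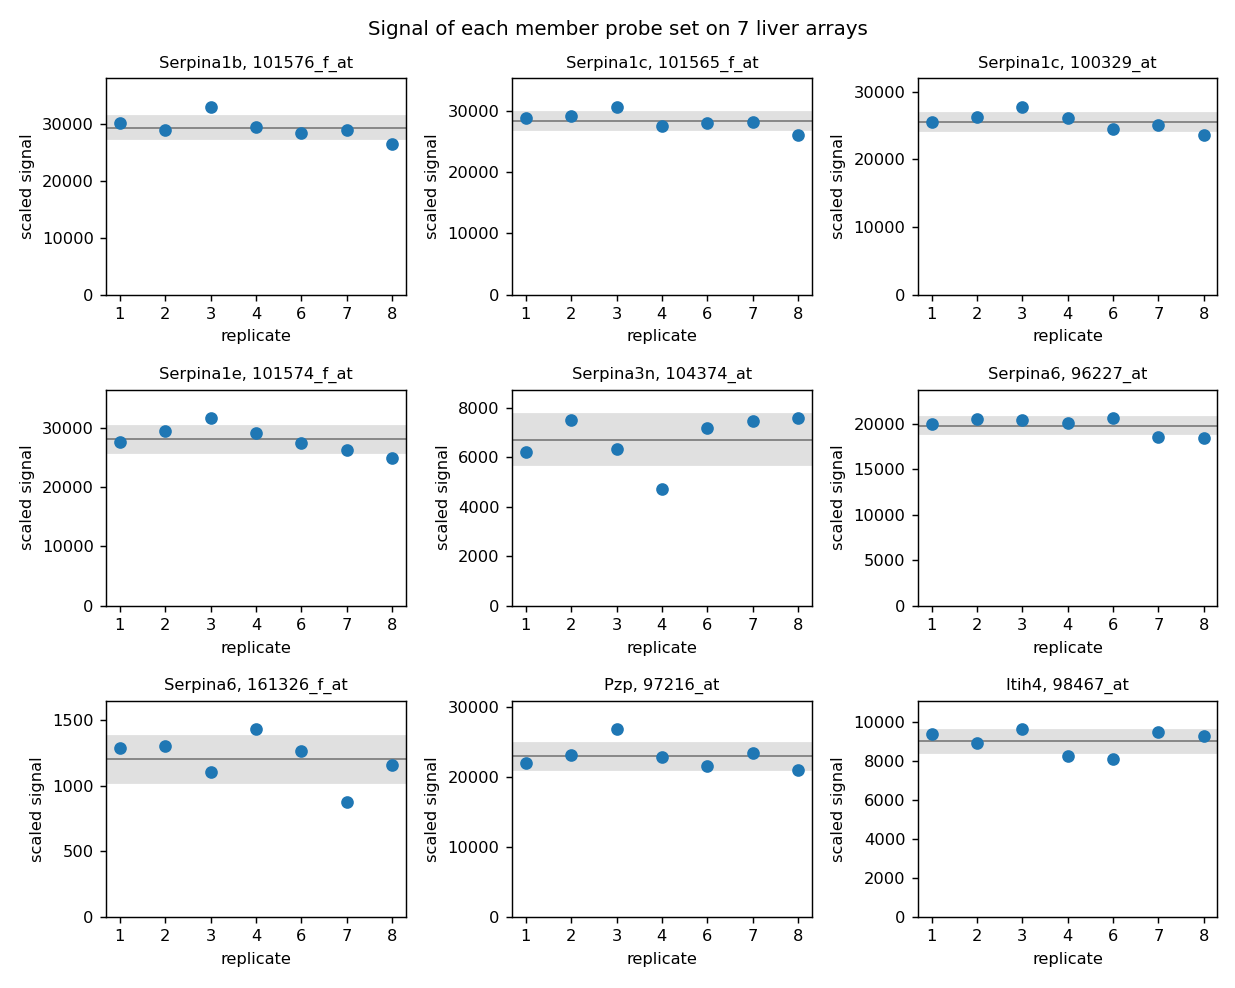
Scaled signal (linear axis from 0) of each of the 9 probe sets on the 7 arrays, with the mean as a line and 1 SD either side as a grey band. Serpina3n stands lowest on replicate 4 at 4728, and the 3 Serpina1 genes and Pzp peak on replicate 3.

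Spread falls as signal rises, so each inhibitor was also set beside the trend of the SD at its level. The median log2 SD of the 7 genes was 0.10, against 0.18 over the 4481 genes tested. Serpina6 (log2 SD 0.07) and Serpina1c (0.07) were among the steadiest, with 2.03% and 2.70% of tested genes below them. The figure was 8.39% for Serpina1b (0.10), 9.42% for Itih4 (0.10), 15.8% for Serpina1e (0.12) and 16.2% for Pzp (0.12). Only Serpina3n, among the 7, lay above the median gene, with 72.3% of tested genes below it. The SD on the trend at the inhibitors' levels was 0.12 to 0.14. Serpina1e and Pzp lay on the trend (0.12 for each), Serpina1b, Serpina1c, Serpina6 and Itih4 lay below it, and Serpina3n, at 0.25 against 0.14, above it. No member passed the test for a spread above that of genes of the same level (limma, Benjamini-Hochberg adjusted p 0.918 to 0.995), nor did any gene tested (0%). Without adjustment, 0 of the inhibitors and 6.72% of all genes tested had a limma p under 0.05. Serpina3n came nearest, at 0.0967. Saa2, an acute phase gene whose highest array was 10.4 times its lowest, had an adjusted limma p of 0.102. Failing this test therefore does not show that a spread is ordinary.

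**Figure D2:**
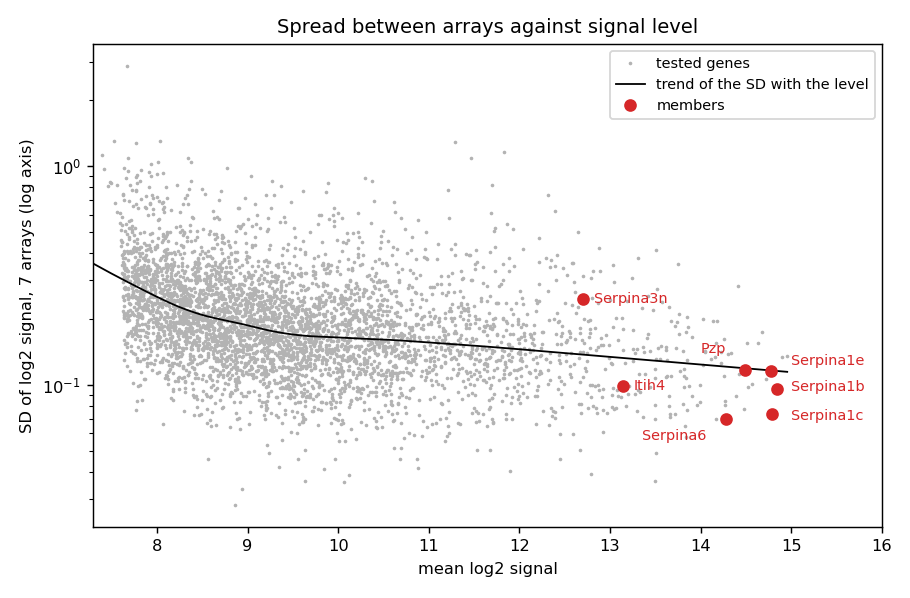
SD of log2 signal over 7 arrays (log axis) against mean log2 signal for the 4481 tested genes (grey), their trend (line) and the 7 inhibitors (red). Serpina3n lies above the trend at an SD of 0.25, and Serpina6 and Serpina1c lie well below it at 0.07.

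The order of the arrays was shared by several of the inhibitors. Serpina1b, Serpina1c, Serpina1e, Pzp and Itih4, 5 of 7, were highest on replicate 3, as were 14.4% of tested genes. Serpina1b, Serpina1c, Serpina1e, Serpina6 and Pzp, 5 of 7, were lowest on replicate 8, as were 13.0% of tested genes. The Serpina1 genes were read here by _f_at probe sets that may not separate the copies, so in both counts they may not be separate observations. In log2 units, replicate 3 stood above the gene's mean by 0.17 in Serpina1b, 0.12 in Serpina1c, 0.18 in Serpina1e and 0.23 in Pzp, while Serpina3n was at -0.07 there. Among the 113 other tested genes as bright as Itih4 or brighter, 39.8% were highest on replicate 3 and 25.7% lowest on replicate 8. The brightest signal of an array was highest on replicate 3 (37771) and lowest on replicate 8 (28122). On both arrays that signal was albumin's (Alb), which is among these bright genes, so it is not a separate observation. The same order was thus common among bright genes at large, and its source was not tested.

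Quantile normalization, which gives every array the same set of values by rank, removed most of this order. It gave Serpina1b the same value on 5 of the 7 arrays, because that gene held the same rank there, and replicate 3 then stood at 0.00 in Serpina1b, -0.03 in Serpina1c, 0.03 in Serpina1e and 0.08 in Pzp. Serpina3n kept its low array, at -0.49 on replicate 4 under both scalings.

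**Figure D3:**
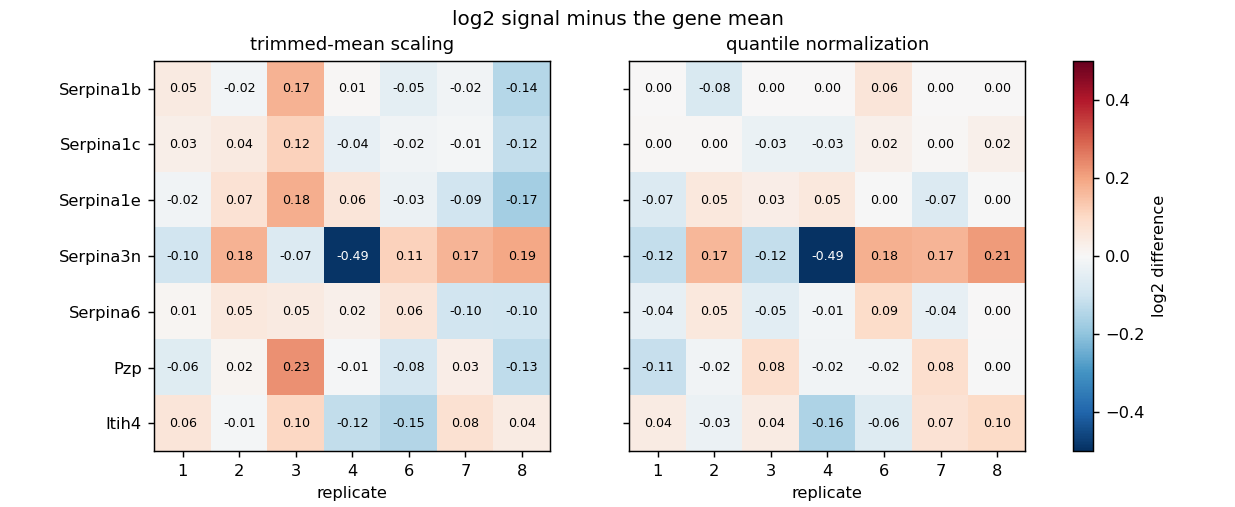
log2 signal minus the gene's mean for the 7 inhibitors on each array, after scaling to a common trimmed mean (left) and after quantile normalization (right). Replicate 3 is high in the Serpina1 genes and Pzp on the left, near 0 in the Serpina1 genes on the right, and replicate 4 of Serpina3n is at -0.49 in both.

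Between pairs of the 7 inhibitors, 21 in all, the median Pearson r over 7 arrays was 0.35, against 0.00 over all 10037440 pairs of tested genes. Bright genes in general had raised values with most of the inhibitors, but not with Serpina3n. The median r of the 113 bright genes above was 0.52 with Serpina1b, 0.49 with Serpina1c, 0.46 with Serpina1e and 0.37 with Pzp. It was 0.27 with Serpina6, 0.23 with Itih4 and -0.25 with Serpina3n. The median pairwise r was 0.59 among the other plasma protease inhibitors tested and 0.64 among the plasma proteins, so the 0.35 was not high beside genes of those kinds. Among the Serpina1 copies, r was 0.909 for Serpina1b and Serpina1c (exact p = 0.0153), 0.857 for Serpina1b and Serpina1e (exact p = 0.0196) and 0.836 for Serpina1c and Serpina1e (exact p = 0.0202). Spearman's rho for these pairs was 0.714, 0.821 and 0.750 (exact p = 0.0881, 0.0341 and 0.0663). None passed Benjamini-Hochberg adjustment over all tested genes (0% passed for each gene), where the smallest adjusted p of these 3 pairs was 0.759. The smallest exact p that 7 arrays allow is 0.000198, so many genes would have to share it for any to pass. Failing the adjustment therefore does not show that a relation is absent. Without replicates 3 and 8, r dropped to 0.305, 0.163 and 0.164, so the relation was weaker on the other arrays. Leaving out the farthest arrays also narrows the range, which can itself lower r. After quantile normalization r was 0.187, -0.356 and -0.458. That step gave Serpina1b the same value on 5 arrays, Serpina1c on 3 and Serpina1e on 2. With so few distinct values, these r cannot decide whether the relation was present.

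Pzp, encoded on another chromosome, gave values close to those of the copies. Its r was 0.869 with Serpina1b (exact p = 0.0202), 0.817 with Serpina1c (exact p = 0.0341) and 0.795 with Serpina1e (exact p = 0.0341), with rho of 0.643, 0.750 and 0.643 (exact p = 0.139, 0.0663 and 0.139). In the tests of Pzp the adjusted p was 0.793 to 0.809, and without replicates 3 and 8 r was -0.051, 0.028 and 0.071. Serpina1e and Serpina6 correlated at r = 0.786 (exact p = 0.0363, adjusted p = 0.920) and rho = 0.607 (exact p = 0.167), with r = 0.719 without replicates 3 and 8. Without the 2 arrays farthest in Serpina6 it was 0.168, so this relation too was weaker on the other arrays. These 4 pairs and the 3 Serpina1 pairs were the 7 of 21 with an unadjusted p under 0.05, where 2.19% (for Serpina1c) to 2.79% (for Serpina1b) of tested genes had a positive r of that kind with these 5 genes. Since the _f_at probe sets may not separate the Serpina1 copies, these pairs may not be separate observations.

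Serpina3n gave negative values with most of the others. Its r was -0.407 with Serpina1b, -0.467 with Serpina1e, -0.192 with Pzp and -0.344 with Serpina6. It was -0.086 with Serpina1c and 0.345 with Itih4, and none of these had an exact p under 0.05. With the means of the 2 spike-in sets of arrays removed, no r of Serpina3n stayed negative. It was 0.006 with Serpina1b, 0.024 with Serpina1e, 0.138 with Pzp, 0.032 with Serpina6, 0.465 with Serpina1c and 0.506 with Itih4. Without replicates 1 and 4 every r was negative, from -0.278 (Itih4) to -0.908 (Serpina1b). Itih4 gave r = 0.431 with Pzp, 0.340 with Serpina1b, -0.014 with Serpina1e and -0.460 with Serpina6, none with an exact p under 0.05.

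**Figure D4:**
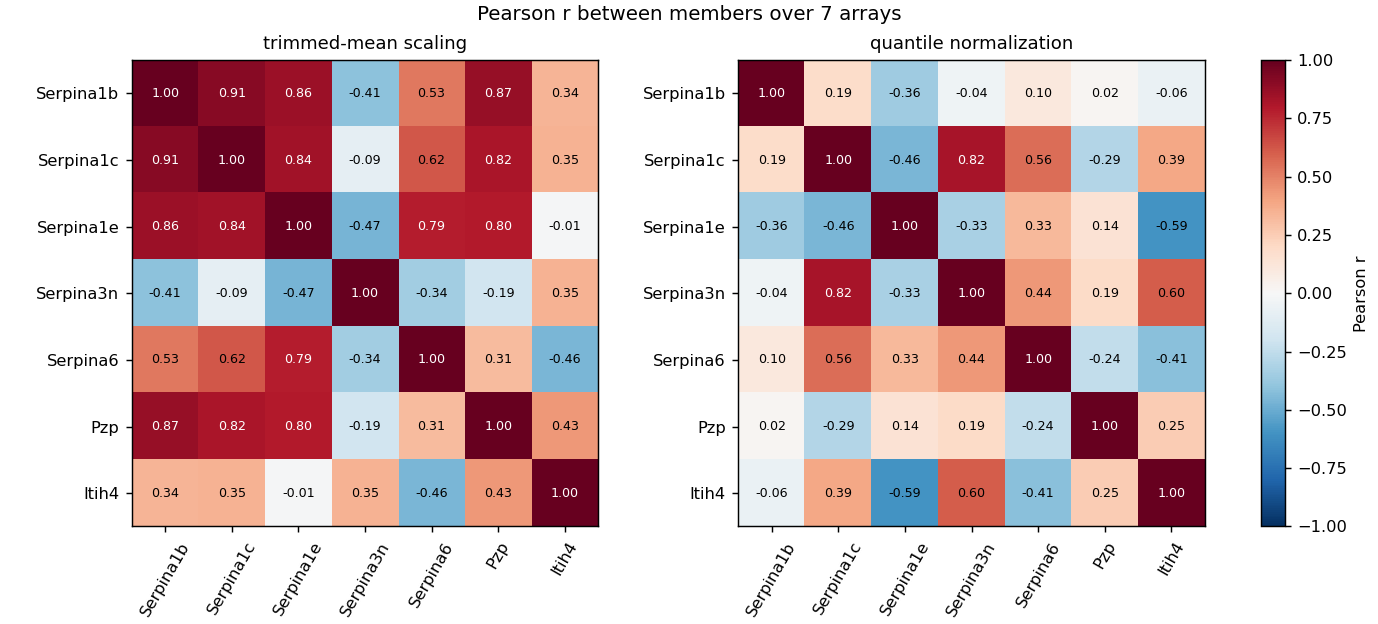
Pearson r over 7 arrays between the 7 inhibitors, after scaling to a common trimmed mean (left) and after quantile normalization (right). On the left the Serpina1 genes and Pzp form a block of 0.80 to 0.91, and on the right the same block runs between -0.46 and 0.19.

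The spike-in signal also correlated with the Serpina1 copies. Its r was 0.910 with Serpina1e (exact p = 0.00476, adjusted p = 0.763, rho = 0.929 with exact p = 0.00675), 0.792 with Serpina1b (exact p = 0.0179), 0.703 with Serpina1c (exact p = 0.0710) and 0.674 with Pzp (exact p = 0.0774). With Serpina3n it was -0.596 (exact p = 0.109). With the means of the 2 array sets removed, r between the Serpina1 copies was 0.713 to 0.846, and between Pzp and the copies 0.756 to 0.845. The spike-in's own r, computed the same way, was 0.822 with Serpina1e, 0.638 with Serpina1b, 0.456 with Serpina1c and 0.798 with Pzp. The part of the spike-in pattern in these relations was not tested.

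Other plasma proteins of the hepatocyte had high correlations with the Serpina1 copies. Of 20 plasma protein genes tested, 16 were highest on replicate 3, against 14.4% of all tested genes. The list was bright (median signal 18163), and 39.8% of the 113 bright genes above were highest on replicate 3. With Serpina1b, 13 of the 20 had a positive r with an unadjusted exact p under 0.05, against 2.79% of all tested genes. The counts were 10 of 20 with Serpina1c (2.19% of all), 8 with Serpina1e (2.48%) and 7 with Pzp (2.72%), and none passed the adjustment (0%). Such counts were not made among the bright genes, whose median r with Serpina1b was 0.52, against 0.76 over the 20. Albumin (Alb), the main carrier protein of plasma, gave r = 0.971 with Serpina1b (exact p = 0.000595, adjusted p = 0.296, rho = 0.964), and 0.803 without replicates 3 and 8. Plasminogen (Plg), the zymogen of the clot-dissolving protease plasmin, gave r = 0.986 with Serpina1b (exact p = 0.000992, adjusted p = 0.370, rho = 0.893), and 0.888 without them. Plg was read by an _f_at probe set, which may also read related transcripts. After quantile normalization the counts were 0 for all 4 inhibitors, and without replicate 3 they were 4, 5, 2 and 0 for Serpina1b, Serpina1c, Serpina1e and Pzp, on 6 arrays. Because quantile normalization left tied values between arrays in these inhibitors, the counts of 0 cannot decide whether the relations were present.

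Asgr1, a subunit of the hepatocyte receptor that clears glycoproteins from blood, was among the genes that shared the smallest adjusted p in the tests of Serpina1b. Their r was 0.985 and rho was 1 (exact p = 0.000198 for r, the smallest that the pairings allow; adjusted p = 0.222), and r was 0.965 without replicates 3 and 8. Asgr1 averaged 7359 ± 732 (SD, n = 7), from 6210 on replicate 8 to 8571 on replicate 3. Lrp1, the clearance receptor for protease complexes, was steady at 4668 ± 355 (SD, n = 7).

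Proteases that these inhibitors meet were measured in part. Of 21 listed target proteases on the array, 10 were tested and 5 lay below the floor on all arrays. Elane, neutrophil elastase and the classic target of alpha-1-antitrypsin, averaged 237 ± 46.3 (SD, n = 7), just above the filter. The mean score of the 10, each gene's log2 signal minus its mean, correlated with Pzp at r = 0.857 (exact p = 0.00853, adjusted p = 0.837) and rho = 0.786 (exact p = 0.0480), and r was 0.706 without the 2 arrays farthest in the score. Among listed proteases that the liver makes for plasma, Plg averaged 27043 ± 2005, prothrombin (F2) 9907 ± 639 and factor X (F10) 5294 ± 283 (SD, n = 7 each).

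Pzp was set beside the other alpha-macroglobulins. Mug1 and Mug2, the single-chain murinoglobulins, were read by _f_at probe sets that may not separate them. Mug2 read 4623 on replicate 6, a median of 5923 and 10373 on replicate 3, a log2 SD of 0.50. Mug1 read 4503 on replicate 8, a median of 5493 and 8163 on replicate 3, a log2 SD of 0.34. Neither passed limma's test of spread after adjustment. Replicates 3 and 7 were the high pair in both, and also the highest pair of Pzp and of Itih4, 2 of 7 members against 6.49% of all tested genes. Pzp correlated with Mug1 at r = 0.847 (exact p = 0.00655, adjusted p = 0.784) and rho = 0.893 (exact p = 0.0123), and with Mug2 at r = 0.829 (exact p = 0.00397, adjusted p = 0.784) and rho = 0.929 (exact p = 0.00675). Without replicates 3 and 8, r was 0.649 and 0.733. A2m, the gene named for alpha-2-macroglobulin and given here as part of that family, outside the rule for named genes, lay below the floor on all arrays.

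Itih4 was set beside the other heavy chains, which are named here as its family, outside the rule for named genes. Itih3 was lowest on replicate 4 and highest on replicate 7, and its log2 SD was 0.33, against 0.10 for Itih4. Itih2 averaged 15420 ± 1757 (SD, n = 7). Itih4 correlated with Itih1 at r = 0.798 (exact p = 0.0331, adjusted p = 0.863, rho = 0.821), with Itih3 at 0.640 and with Itih2 at 0.582, and r with Itih1 was 0.768 without the 2 arrays farthest in Itih4. All 4 heavy chains were above their means on replicates 1, 3 and 7 and below them on replicates 2 and 6. Over the 13 other plasma protease inhibitors tested, 3 had a positive r with Itih4 at an unadjusted exact p under 0.05 (2.52% of all tested genes) and none passed the adjustment.

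**Figure D5:**
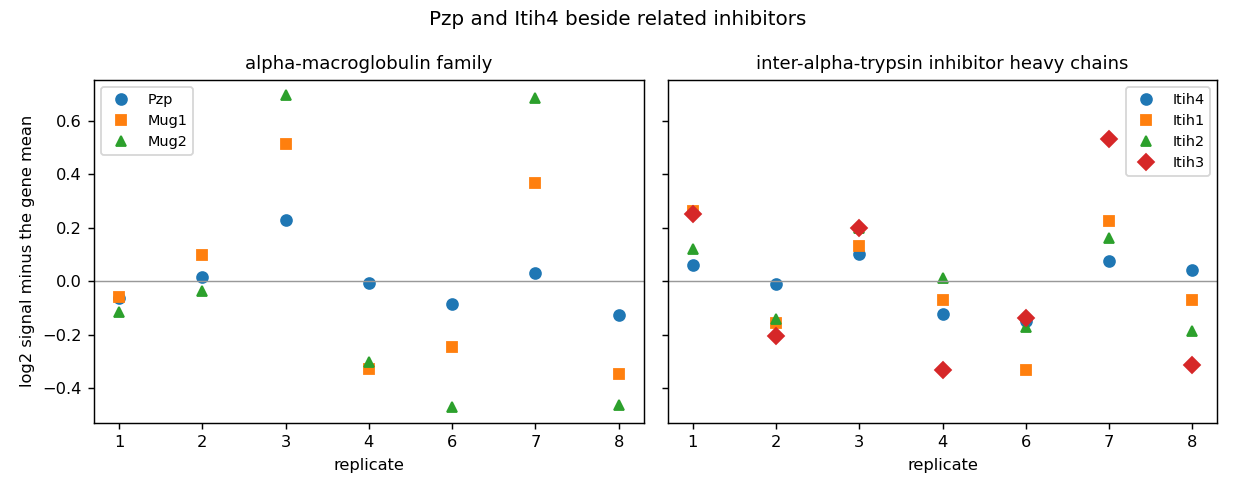
log2 signal minus the gene's mean on each array for Pzp with Mug1 and Mug2 (left) and for Itih4 with Itih1, Itih2 and Itih3 (right). Mug2 reaches 0.70 on replicate 3 and 0.69 on replicate 7, where Pzp is at 0.23 and 0.03.

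Serpina3n and Itih4 are acute phase genes, made in greater amount when cytokines of inflammation reach the liver. Saa2, serum amyloid A and the steepest acute phase reporter, was read by an _f_at probe set, which may also read related transcripts. It read 12083 on replicate 7 and 6261 on replicate 3, against 1165 to 2237 on the other 5 arrays. Serpina3n read 7472 and 6340 on those arrays, within its range elsewhere. Its r with Saa2 was 0.357 (exact p = 0.425) and with Lcn2, lipocalin 2, 0.210. Of 25 acute phase genes tested, 0 had an unadjusted p under 0.05 with Serpina3n in either direction (3.42% of all tested genes positive, 2.75% negative), and 17 of the 25 had a positive r. With the acute phase score its r was 0.524 (exact p = 0.243, adjusted p = 0.883) and rho was 0.464 (exact p = 0.302), with r = 0.479 without the 2 arrays farthest in the score. Itih4 correlated with the acute phase score at r = 0.827 (exact p = 0.0232, adjusted p = 0.707) and rho = 0.857 (exact p = 0.0238), and at 0.687 without the 2 arrays farthest in the score. Haptoglobin (Hp), which binds free haemoglobin, gave r = 0.919 with Itih4 (exact p = 0.00198, adjusted p = 0.815) and rho = 0.929 (exact p = 0.00675), and r was 0.843 without the 2 farthest arrays.

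Of the 8 list scores, Serpina3n had its highest r with genes that fold and export secreted proteins. Its r with the score of 15 tested genes of the endoplasmic reticulum was 0.872 (exact p = 0.00198, adjusted p = 0.584) and rho was 0.857 (exact p = 0.0238), with r = 0.824 without the 2 arrays farthest in the score and 0.829 with array set means removed. Of the 15, 12 had a positive r with Serpina3n, and 1, the disulfide isomerase Pdia4, named after its values were seen, had an unadjusted exact p under 0.05 (r = 0.887), against 3.42% of all tested genes; with 15 genes, 1 is near that share. The hepatocyte factor Hnf4a gave r = 0.862 (exact p = 0.0163, adjusted p = 0.717, rho = 0.607), but 0.018 without replicates 1 and 4. Against 3 of the 13 other plasma protease inhibitors, Serpina3n had a negative r with an unadjusted exact p under 0.05 (2.75% of all tested genes): Serpinf1, Serpinc1 (antithrombin) and Kng1 (kininogen), the first pair named after their values were seen. The list as a whole was not opposed to Serpina3n. Of the 13, 5 had a positive r, the median r was -0.128, and r with the list's score was -0.006 (exact p = 0.989).

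With Serpina6, none of the 8 list scores reached an unadjusted exact p under 0.05. Its r with the score of 13 steroid carrier and glucocorticoid response genes was 0.187 (exact p = 0.652). That r was 0.729 with array set means removed and 0.066 without replicates 4 and 6, the arrays farthest in the score. Of those 13 genes, 0 had an unadjusted p under 0.05 with Serpina6 (2.23% of all tested genes positive, 1.70% negative). Growth hormone and sex-biased genes were read because the labels leave the dwarf genotype unsettled. Igf1, the hormone that growth hormone raises in liver, averaged 8919 ± 542 and Ghr, the growth hormone receptor, 4252 ± 503 (SD, n = 7 each), and their r with Serpina1e was 0.215 and -0.052. Mup3, a major urinary protein, gave r = 0.850 with Serpina1e (exact p = 0.0187, adjusted p = 0.898) and 0.870 with Pzp (exact p = 0.00655, adjusted p = 0.784). Mup3 was read by an _f_at probe set and was highest on replicate 3. Of the 15 genes of this list tested, 1 had a positive r with Serpina1e at an unadjusted exact p under 0.05 (2.48% of all tested genes). With Pzp, 3 had one (2.72%). The list's score gave r = 0.036 with Serpina1e and 0.556 with Pzp, neither with an exact p under 0.05.

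The genes most like the 3 most variable inhibitors, by Pearson r over 7 arrays among all tested genes, had no adjusted p under 0.05. For Serpina3n they were Ufd1 (r = 0.984), Pctp (0.979), Psph (0.970), Rpl37a (0.970) and Odc1 (0.951), all lowest on replicate 4 as Serpina3n was (14.9% of tested genes were lowest there). For Pzp they were Slc35c2 (0.964), Dtd2 (0.963), Snapin (0.953), Akr1c6 (0.952) and Cct6a (0.944), all highest on replicate 3. For Serpina1e they were Mc1r (0.971), Mtm1 (0.940), Dtx1 (0.938), Nog (0.937) and Eci1 (0.935), all highest on replicate 3 and lowest on replicate 8. The likeness was chosen by its size, so it is a description. Of the other clade A serpins, 3 were on the array: Serpina10, the protein Z-dependent inhibitor, averaged 3256 ± 325 (SD, n = 7), while Serpina12 at 91.2 and Serpina5 at 58.8 were not tested.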

How the data were processed

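Liver RNA was measured on 7 Affymetrix mouse U74Av2 arrays, 1 colour, per the labels. The authors deposited 1 linear intensity for each probe set on each array; software and scaling target: not given in the sources used here. Among 12488 probe sets were 66 controls; the annotation gave 10833 a single gene, 396 several and 1193 none, and gene identifiers matched RefSeq for 10817. The arrays name no genome build. Each array was scaled to the same mean after trimming 2% at each end (500.4), values below 0.1 of it (50.04) were set to that floor, and log2 was taken. The brightest probe set stood for a gene, and genes averaging at least 0.4 of the mean (200.1) were tested, 4481 in all. Printed signals are scaled values before the floor.

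Spread was tested with limma 3.58.1 in R 4.3.3: an intercept-only fit, each variance against a robust, trended prior (prior degrees of freedom 5.61) by a one-sided F test for larger variance, with Benjamini-Hochberg adjustment at 0.05. Pearson's and Spearman's coefficients had exact permutation tests, two-sided, over 5040 pairings, adjusted over all tested genes for each inhibitor or score (56 relations of 8 list scores and 21 pairs of inhibitors). Both steps were tested on simulated data. Python 3.11.15, numpy 2.4.6, pandas 2.3.3, scipy 1.17.1 and matplotlib 3.10.9 were used. The number of arrays limits the precision.

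The inhibitors and the 20 gene lists were chosen with earlier results of these data known. Genes named are every inhibitor with each probe set; in each list up to 4 of highest signal and up to 2 of largest log2 SD; the 5 most alike for each of the 3 most variable inhibitors; and Saa2, Lcn2, Igf1 and Ghr. Alternatives were quantile normalization, median centring, no scaling, a floor of 0.05 or 0.2, an added offset, filters of 0.2 and 0.8, no filter, averaging all probe sets, other priors, removing the array sets read from the spike-ins, and leaving out each array. Counts of plasma protein genes under these alternatives were added after seeing the data.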

Additional observations from a re-analysis of the deposited data

Results flagged for a closer look

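Within the group of 7, an extreme array was tested by its gap to the nearest array over the range (Dixon's ratio, critical value 0.568). Of 115 sets of values, 11 passed. Chance flags about 1 in 20 of unselected sets, but many of these genes were named for a large spread or for likeness to Serpina3n, so the 2 shares cannot be compared. Serpina3n passed at 0.577, through its low replicate 4. The protease-side and receptor genes were Elane at 0.694, low on replicate 1, and Asgr2 at 0.635, high on replicate 1. Among the genes most like Serpina3n, Ufd1 at 0.618 and Odc1 at 0.644, were low on replicate 4. The intracellular serpins Serpinb9 at 0.569, high on replicate 8, and Serpinb6a at 0.585, high on replicate 1, also passed. The others were Lcn2 at 0.586, high on replicate 7, Per1 at 0.764, low on replicate 4, and Tie1 at 0.623 and Timp1 at 0.615, low on replicate 3.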

How the results depend on the processing

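Values that moved did so mostly with quantile normalization and without replicate 3 or 8. Quantile normalization gave a median log2 SD of 0.054, a median pairwise r of 0.103, 1 pair with an unadjusted p under 0.05, and 0 plasma protein genes for Serpina1b, Serpina1c, Serpina1e and Pzp. It reversed r between the Serpina1c probe sets to -0.093, where the brighter of them had the same value on 3 arrays. Under it the log2 SD was 0.04 for Serpina1b, 0.02 for Serpina1c, 0.05 for Serpina1e and 0.07 for Pzp. Median centring gave a median pairwise r of 0.547. An offset in place of the floor gave 1 gene with excess spread in place of 0. Leaving out 1 array at a time gave 0 to 1 such genes, a median log2 SD of 0.07 to 0.11, a median pairwise r of 0.123 to 0.504, and 0 to 7 pairs: 4 without replicate 2, 1 without replicate 3, 4 without replicate 6 and 0 without replicate 8. The plasma protein counts then ran from 4 to 11 for Serpina1b (8 without replicate 1), 5 to 10 for Serpina1c, 2 to 9 for Serpina1e (4 without replicate 8) and 0 to 10 for Pzp (2 without replicate 6, 1 without replicate 8). Without replicate 3 the log2 SD was 0.06 for both Pzp and Serpina1b. The mean of both probe sets gave Serpina6 a log2 SD of 0.14. The count of inhibitors with excess spread was 0 in every setting run. Leaving out an array also lowers the number of arrays to 6; other causes were not tested. No paired analysis was possible because there is only 1 group. No detection calls were used, so a signal close to the floor may be background.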

Other observations

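Further probe sets carry several Serpina1 genes and were not used above, 3 in all. One, annotated to 4 genes, averaged 29288 ± 1948 (SD, n = 7), highest at 32080 on replicate 3 and lowest at 26020 on replicate 8, the same extremes as Serpina1b, Serpina1c and Serpina1e. Another, annotated to 3 genes, was far steadier, at 23284 to 24744 with a log2 SD of 0.04, and was lowest on replicate 1. The last, annotated to 5 genes, read 1310 to 1869 with a log2 SD of 0.18. Over 7 arrays the 4-gene probe set correlated with Serpina1c at r = 0.941 (exact p = 0.00476; rho = 0.929, exact p = 0.00675), and r was 0.689 without the 2 farthest arrays. The 3-gene probe set gave r = 0.363 with Serpina1e (exact p = 0.421), 0.508 with Serpina1b (exact p = 0.272), 0.596 with Serpina1c (exact p = 0.164) and 0.666 with the 4-gene probe set (exact p = 0.0984). With the means of the array sets removed these were 0.676, 0.751, 0.812 and 0.917.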
